A study of Canis lupus familiaris with 4 samples.

Results

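*CD163*, *CD86*, *IL10* and *PTGER4* were examined as 4 of the 160 targets of a custom NanoString panel, on which barcoded probes are counted without amplification. They were found through their RefSeq transcripts, and all 4 were on the panel and above background in every biopsy. RNA came from archival, formalin-fixed skin biopsies of 4 pet dogs. The erythema multiforme (EM) biopsy was from a spayed female Boxer of 5 years and the CPV (cell poor vasculitis) biopsy from a spayed female Pomeranian of 4 years. The pyoderma biopsies were from neutered males, a Golden Retriever of 7 years (case 1) and a German Shepherd of 9 years (case 2). The pyoderma dogs were thus the males and the older dogs, so pyoderma against EM and CPV cannot be told apart from sex or age. CPV and both pyoderma biopsies are labelled as controls and are called the comparatives here. No treatment is given for any dog, EM and CPV have 1 dog each, and healthy skin was not analysed here.

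Macrophages of the skin clear debris, present antigen and release cytokines, and the same cell can drive or restrain a T cell response. *CD86* encodes a surface ligand that activated antigen-presenting cells show to T cells, where it binds the stimulating receptor CD28 or the inhibitory receptor CTLA-4. *CD163* encodes the scavenger receptor for haemoglobin bound to haptoglobin and is a marker of macrophages, often those with a resolving profile. *IL10* encodes the cytokine that lowers antigen presentation and inflammatory cytokine release. *PTGER4* encodes the EP4 receptor for prostaglandin E2, which raises cyclic AMP in myeloid and lymphoid cells. B cells and dendritic cells also make *CD86*, and T cells also make *IL10* and *PTGER4*, so in a whole biopsy these counts do not belong to macrophages alone. Fewer cells of a type and less RNA per cell cannot be told apart in such samples.

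The summed count of the 160 targets was between 517282 and 808877 in a biopsy, and background, the mean + 2 SD of 8 negative control probes, from 13.0 to 16.3 counts. Normalized counts are counts scaled to the housekeeping genes *HPRT1*, *RPL13A* and *B2M*. The intervals are 95% limits that cover counting error only, not the error of the scaling or the spread between dogs. Keratin and collagen targets were abundant in every biopsy, as skin should show, but in unequal amounts. The summed normalized counts of *KRT1*, *KRT5*, *KRT14* and *KLK7*, 4 of 5 keratinocyte markers, were 111265 in EM, 282853 in CPV, 211040 in pyoderma case 1 and 79221 in case 2. The dermal collagen gene *COL1A1* had 69257 normalized counts in EM, 4310 in CPV, 44948 in pyoderma case 1 and 138520 in case 2. CPV thus held the least collagen signal and the most signal of *KRT1*, *KRT5* and *KRT14*, which make up most of the sum. *KLK7* did not follow them, with 3252 normalized counts in CPV, 5544 in EM, 9312 in pyoderma case 1 and 3143 in case 2.

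The macrophage marker and the costimulatory ligand were both highest in the CPV biopsy and, with housekeeping scaling, lowest in the EM biopsy. *CD163* (NM_001048020.1) had 571 normalized counts in EM (95% Poisson limits 529 to 615), 1375 in CPV (1299 to 1453), 597 in pyoderma case 1 (548 to 650) and 735 in case 2 (682 to 791). CPV stood above every other biopsy, while the intervals of EM and pyoderma case 1 overlapped. *CD163* was the only one of 27 macrophage and myeloid markers that was paired with a target, so no other marker could be set beside it. CPV was highest for *CD163* under all 9 scalings compared. The lowest biopsy was EM under 4 scalings and pyoderma case 1 under 5.

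*CD86* (NM_001003146.1) had 474 normalized counts in EM (95% Poisson limits 436 to 514), 1262 in CPV (1189 to 1337), 676 in pyoderma case 1 (624 to 732) and 869 in case 2 (811 to 930). No pair of these intervals overlapped. EM was lowest under all 9 scalings. CPV was highest under 8, and pyoderma case 2 was highest when the panel total was used. The CPV biopsy exceeded the mean of the pyoderma biopsies 1.63-fold for *CD86* and 2.06-fold for *CD163*, and the pyoderma biopsies differed from each other 1.29-fold and 1.23-fold. Of all 160 targets, 26.9% were highest in CPV, so this position is shared by many.

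*PTGER4* differed from both in the place of CPV, which was its lowest biopsy. *PTGER4* (NM_001003054.1) had 338 normalized counts in EM (95% Poisson limits 306 to 372), 159 in CPV (134 to 187), 297 in pyoderma case 1 (263 to 335) and 414 in case 2 (375 to 457). CPV lay below every other biopsy and was lowest under all 9 scalings, as were 31.9% of all targets under housekeeping scaling. Its level was 0.446 of the pyoderma mean, and the pyoderma biopsies differed 1.40-fold. EM lay between the pyoderma biopsies, and its interval overlapped that of case 1 only.

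*IL10* (NM_001003077.1) was the least abundant and the least variable. It was counted 127 times in EM, 122 times in CPV, 127 times in pyoderma case 1 and 77 times in pyoderma case 2, which is from 4.84 to 9.77 times background. This gave 104 normalized counts in EM (95% Poisson limits 86.9 to 124), 135 in CPV (112 to 161), 139 in pyoderma case 1 (116 to 166) and 79.6 in case 2 (62.8 to 99.4). Pyoderma case 2 was lowest under all 9 scalings, and its interval overlapped that of EM but neither CPV nor pyoderma case 1. The highest biopsy exceeded the lowest 1.75-fold for *IL10*, 2.41-fold for *CD163*, 2.61-fold for *PTGER4* and 2.66-fold for *CD86*. The median of that fold over the 129 targets above background in all biopsies was 2.68, and 111 of them had a wider range than *IL10*. The 2 pyoderma biopsies thus marked the ends of the range of *IL10* with housekeeping scaling.

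**Figure D1:**
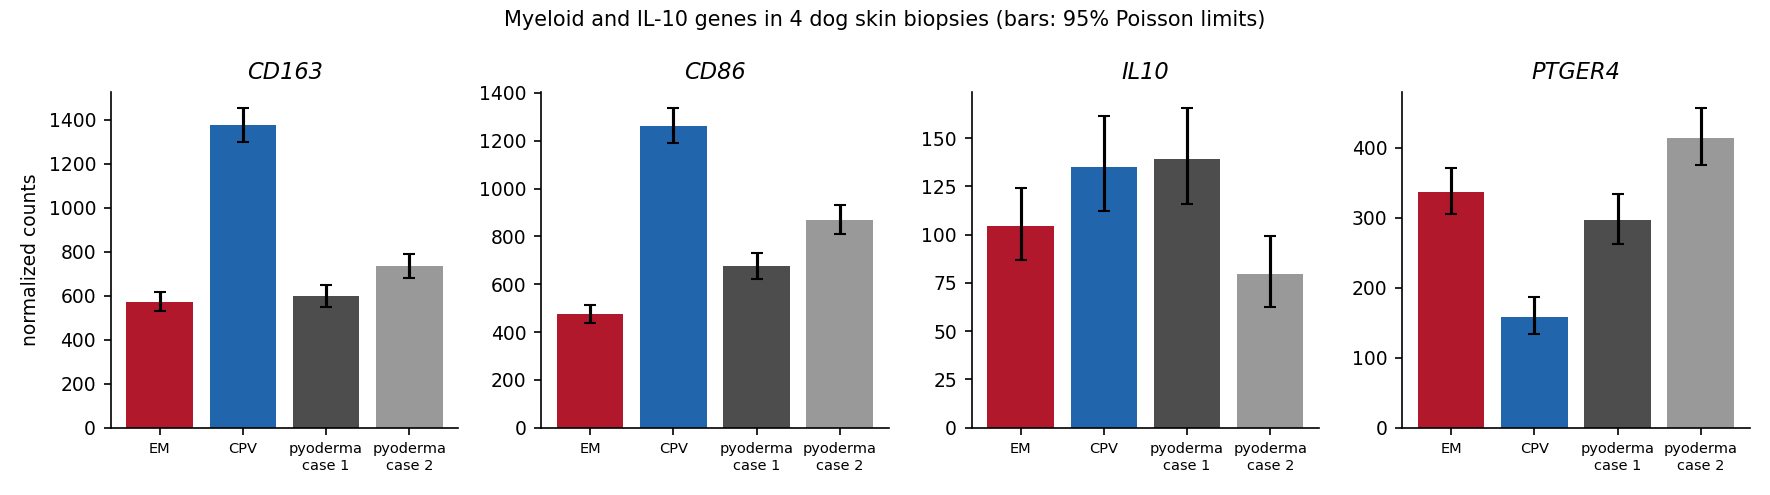
Normalized counts (vertical axis, from 0) of *CD163*, *CD86*, *IL10* and *PTGER4* in the EM, CPV and both pyoderma biopsies, with 95% Poisson limits as error bars. *CD163* and *CD86* are highest in CPV, at 1375 and 1262, where *PTGER4* is lowest, at 159.

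The labels set EM against the comparatives, and that comparison asked whether the inflamed interface differed in these genes from lesions that spare the basal keratinocytes. By edgeR's quasi-likelihood test, and with p adjusted by Benjamini-Hochberg over the whole panel, 0 of the 4 genes were past the threshold of 0.05, as were 0 of 160 targets (0%). An unadjusted p under 0.05 was reached by 6 targets (3.75%), none of them among the 4 genes. With DESeq2 the calls numbered 0 adjusted and 11 unadjusted. The lone EM biopsy was assumed to vary like the comparatives, and with 1 dog on that side the smallest exact permutation p is 0.25. The log2 fold change of *CD86* was −0.98 (standard error 0.764, adjusted p = 0.724) and that of *CD163* was −0.66 (standard error 0.791, adjusted p = 0.820) in the edgeR test. For *IL10* it was −0.18 (standard error 0.802, adjusted p = 0.935) and for *PTGER4* 0.22 (standard error 0.783, adjusted p = 0.930). Over 16 alternatives the adjusted p of *CD86* ran from 0.619 to 0.960 and that of *CD163* from 0.681 to 0.994. It ran from 0.853 to 1.0 for *IL10* and from 0.786 to 0.990 for *PTGER4*.

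Without a model, *CD86* had 936 ± 298 normalized counts in the comparatives (SD, n = 3), and EM lay below them by a log2 difference of −0.93, more than the log2 SD of 0.45 between comparatives. For *CD163* the comparatives had 902 ± 415 normalized counts (SD, n = 3), and the log2 difference of −0.57 was smaller than their log2 SD of 0.63. *PTGER4*, with 290 ± 128 normalized counts in the comparatives (SD, n = 3), differed by 0.32. This rests on CPV, since without it the log2 difference was −0.056. *IL10*, with 118 ± 33.3 (SD, n = 3), differed by −0.13, and its sign followed the scaling. Without CPV the log2 difference of *CD163* was −0.21, so much of that difference also came from the CPV biopsy. EM lay below all comparatives for 2 of the 4 genes and above them for none, where 33.8% of all targets lay below and 21.2% above.

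The median log2 difference over all targets was −0.19, and relative to it *CD86* differed by −0.74, *CD163* by −0.38, *IL10* by 0.056 and *PTGER4* by 0.51. From the lowest difference upward, *CD86* ranked 35, *CD163* 54, *IL10* 84 and *PTGER4* 112 of 160.

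**Figure D2:**
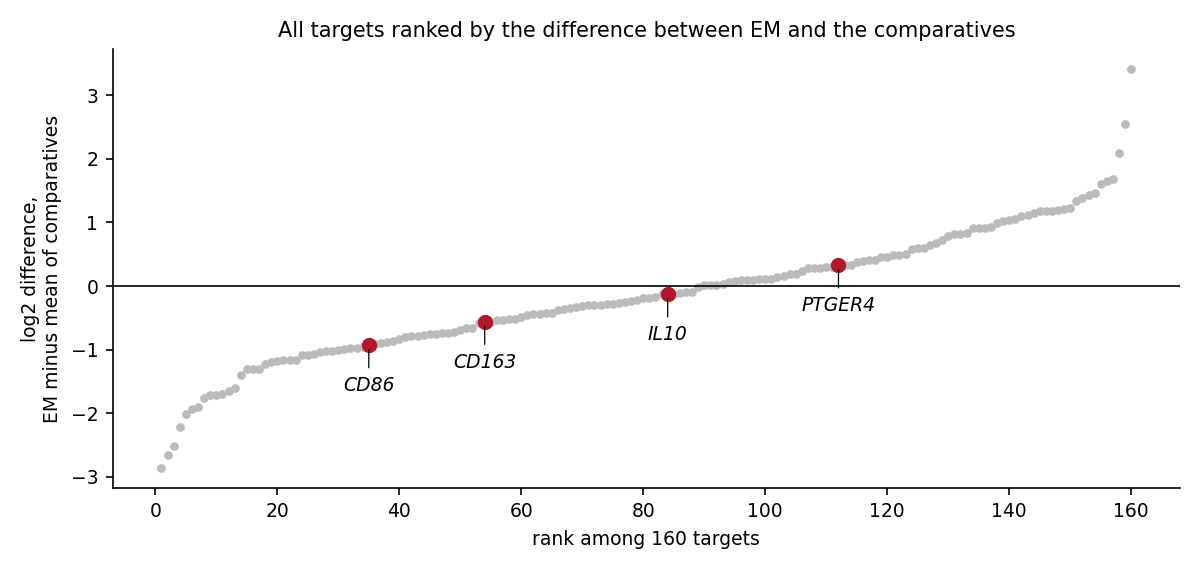
Log2 difference between EM and the mean of the comparatives (vertical axis) for all 160 targets in order of rank (horizontal axis), with the 4 genes in red. They lie in the inner part of the range, from −0.93 for *CD86* to 0.32 for *PTGER4*.

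The same differences were compared under 9 scalings. The log2 difference of *CD86* ran from −1.11 to −0.47 and that of *CD163* from −0.74 to −0.10, both below 0 throughout. *PTGER4* ran from 0.15 to 0.79, although its sign rested on CPV as given above. *IL10* ran from −0.31 to 0.33 and crossed 0.

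**Figure D3:**
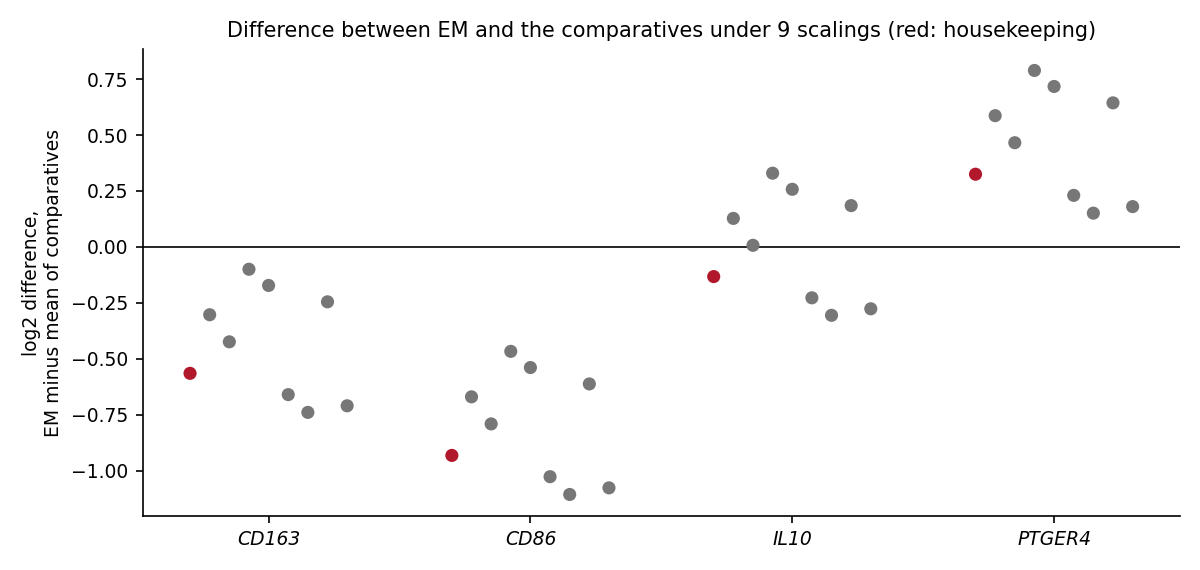
Log2 difference between EM and the mean of the comparatives (vertical axis) for each gene under 9 scalings, 1 point each, with housekeeping scaling in red and the others in grey. The points of *CD86* run from −1.11 to −0.47 and those of *IL10* lie on both sides of 0.

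The ratio of the counts of 2 genes within a biopsy does not depend on scaling, since the same factor multiplies both. It depends on probe efficiency, so only its change from biopsy to biopsy is read here. Within each biopsy the count of the activating gene *CD86* was divided by that of each regulatory gene, and EM had the lowest ratio for all 3. The intervals are exact (Clopper-Pearson) 95% limits.

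*CD86* over *CD163* was 0.830 in EM (0.742 to 0.928), 0.918 in CPV (0.846 to 0.995), 1.13 in pyoderma case 1 (1.01 to 1.27) and 1.18 in case 2 (1.07 to 1.31). The ratio was lower in EM and CPV than in both pyoderma biopsies, which differed little from each other. That split is also one of sex and age, which cannot be told apart from diagnosis here. The ratio in EM was 0.905 of that in CPV, with limits of 0.787 to 1.04 that include 1, and 0.733 of that in pyoderma case 1, with limits of 0.623 to 0.863. CPV, which had the highest level of each gene, was 0.811 of pyoderma case 1 (0.703 to 0.935) and 0.776 of pyoderma case 2 (0.681 to 0.884). The log2 ratio of EM differed from the comparatives' mean of 0.10 ± 0.20 (SD, n = 3) by −0.37.

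*CD86* over *IL10* was 4.54 in EM (3.74 to 5.55), 9.33 in CPV (7.73 to 11.3), 4.86 in pyoderma case 1 (4.01 to 5.93) and 10.9 in case 2 (8.64 to 14.0). The biopsies fell into pairs that cut across the diagnoses, with EM beside pyoderma case 1 and CPV beside pyoderma case 2. The pyoderma dogs differed 2.25-fold from each other, against 1.04-fold for *CD86* over *CD163* and 1.09-fold for *CD86* over *PTGER4*. The log2 ratio of EM differed from the comparatives' mean of 2.98 ± 0.62 (SD, n = 3) by −0.80, but its ratio was 0.935 of that in pyoderma case 1, with limits of 0.707 to 1.24.

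*CD86* over *PTGER4* was 1.40 in EM (1.23 to 1.60), 7.96 in CPV (6.68 to 9.54), 2.28 in pyoderma case 1 (1.97 to 2.64) and 2.10 in case 2 (1.86 to 2.37). This was the widest of the 3 ratios, with a 5.67-fold span from EM to CPV, and here EM lay below every comparative beyond counting error. EM was 0.617 of pyoderma case 1 (0.507 to 0.750) and 0.670 of pyoderma case 2 (0.561 to 0.799). The log2 ratio of EM differed from the comparatives' mean of 1.75 ± 1.08 (SD, n = 3) by −1.26, and by −0.64 without CPV. CPV, whose *CD86* was high and whose *PTGER4* was low, thus widened the difference, and EM lay below both pyoderma biopsies without it.

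**Figure D4:**
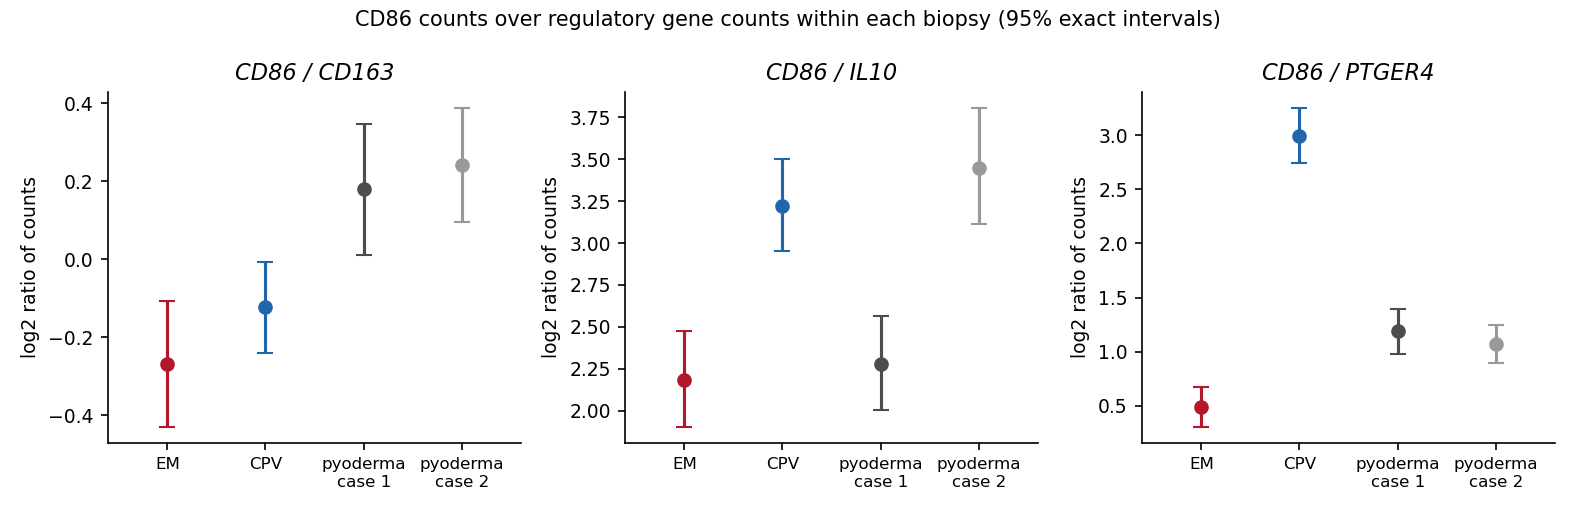
Log2 ratio of the *CD86* count to the count of *CD163*, *IL10* or *PTGER4* (vertical axes, each with its own range) in each biopsy, with exact 95% limits. EM is lowest in every panel, but its interval overlaps that of CPV for *CD163* and that of pyoderma case 1 for *IL10*.

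The lowest place of EM was not particular to the regulatory genes. Over the other 128 targets above background in all biopsies, the ratio of *CD86* to the target was lowest in EM for 70 (54.7%) and highest in CPV for 84 (65.6%). The same count with *CD163* in place of *CD86* gave 41 of 128 targets (32.0%) lowest in EM. With *PTGER4* it gave 17 (13.3%) lowest and 45 (35.2%) highest in EM.

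Among the regulatory genes themselves, *CD163* over *PTGER4* was 1.69 in EM (1.49 to 1.92), 8.67 in CPV (7.29 to 10.4), 2.01 in pyoderma case 1 (1.74 to 2.34) and 1.77 in case 2 (1.57 to 2.01). CPV stood alone and the other biopsies were within counting error of each other. *CD163* over *IL10* was 5.47 in EM, 10.2 in CPV, 4.29 in pyoderma case 1 and 9.23 in case 2, the same pairs as for *CD86* over *IL10*. *IL10* over *PTGER4* was 0.309 in EM, 0.853 in CPV, 0.469 in pyoderma case 1 and 0.192 in case 2, and every pair of biopsies differed beyond counting error. The 3 regulatory genes therefore did not keep a fixed proportion to each other. Over the 6 ratios and the 6 pairs of biopsies, 26 of 36 ratios of ratios had limits that exclude 1, unadjusted. The 36 are not independent, since all are built from the counts of 4 genes in 4 biopsies. The same count was not made over all targets, so the 26 of 36 cannot be read as particular to these genes. These limits compare the biopsies and not the diagnoses.

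Likeness of pattern was measured by the SD over the 4 biopsies of the log2 ratio of 2 counts, where 0 means a fixed proportion, for the 128 other targets above background in all biopsies. For *CD86* the nearest were *SLC6A2* (noradrenaline transporter, SD 0.14), *KLRD1* (CD94 of cytotoxic lymphocytes, SD 0.22) and *CD163* (SD 0.24). For *CD163* they were the unnamed target XM_538426.5 (SD 0.23), *CD86* and the unnamed target XM_005622785.2 (SD 0.27). XM_538426.5 was counted only 21 times in EM, 40 in CPV, 19 in pyoderma case 1 and 17 in case 2. Apart from CPV these counts are close to background. *CD86* and *CD163* were thus among each other's nearest targets, and their ratio spanned 1.42-fold.

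*PTGER4* had a closer companion. The count of *CCL19*, a chemokine that draws dendritic cells and T cells through CCR7, was 1123 in EM, 400 in CPV, 764 in pyoderma case 1 and 1116 in case 2, and its proportion to *PTGER4* varied 1.03-fold (SD 0.019). Next came *CCL4*, a macrophage and T cell chemokine (SD 0.17), and the unnamed target XM_848326.1 (SD 0.20). *IL10* was nearest to *CCL3* (SD 0.15), a related chemokine, and to the unnamed targets XM_005640944.1 (SD 0.18) and XM_545813.6 (SD 0.18). XM_545813.6 was close to background in pyoderma case 2, with a count of 19. *PTGER4* ranked 90 of 128 for *CD86* and 94 of 128 for *CD163*. These targets are the nearest of 128 over 4 points, and the values are given as a description.

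**Figure D5:**
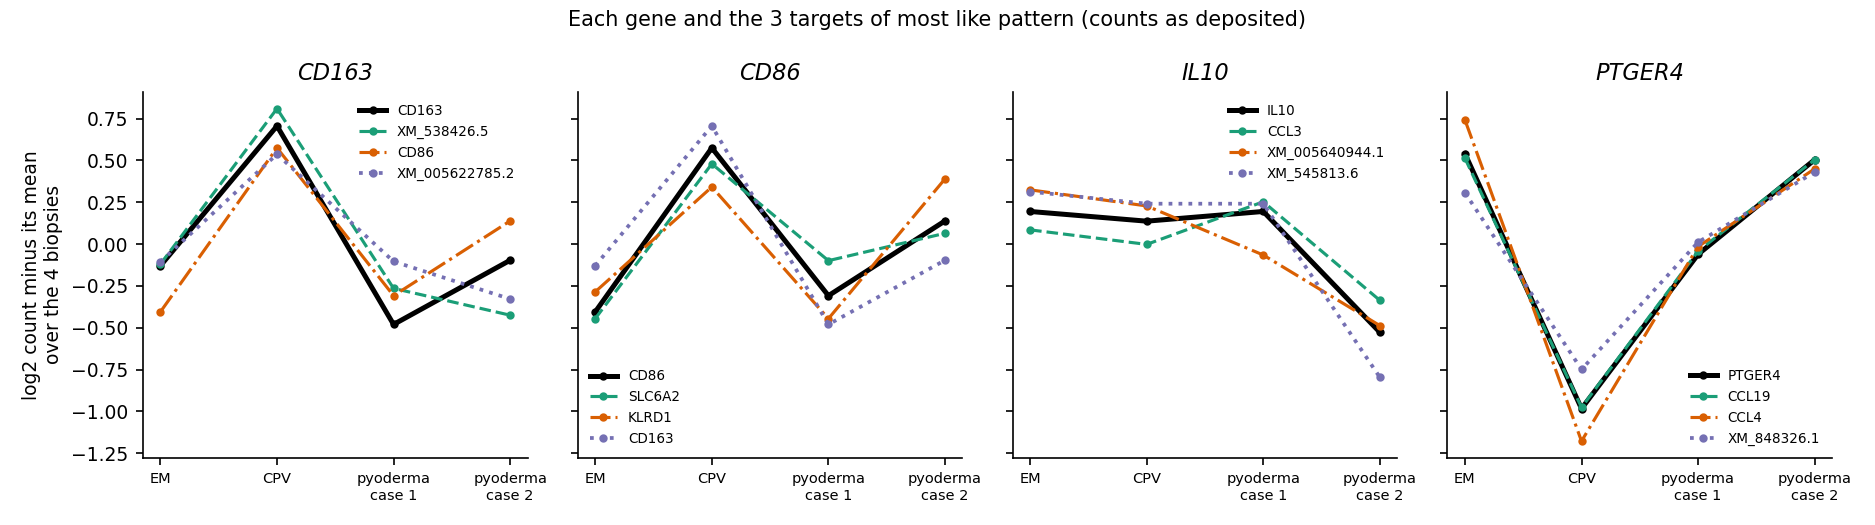
Log2 count as deposited minus its mean over the 4 biopsies (vertical axis) for each gene (black) and its 3 nearest targets, with lines drawn between biopsies to guide the eye only. *CCL19* lies on *PTGER4* in all 4 biopsies, with an SD of the log2 ratio of 0.019.

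Inflammatory cytokines that *IL10* is known to restrain were set against it in the same way. Of 14 such genes, 5 were paired with a target. EM lay below all comparatives for 3 of these, where 33.8% of all targets did so, and within their range for 2. None of the 5 passed the threshold (0 of 160 targets did), and their median log2 difference was −0.77 beside −0.19 for all targets. *IL1B*, an inflammasome product, over *IL10* was 0.276 in EM (0.184 to 0.403), 0.533 in CPV (0.388 to 0.726), 1.20 in pyoderma case 1 (0.946 to 1.54) and 1.73 in case 2 (1.29 to 2.32). Both pyoderma biopsies lay above EM and CPV, a split that again cannot be told apart from sex or age. *TNF* over *IL10* was 0.835 in EM (0.639 to 1.09), 0.869 in CPV (0.663 to 1.14), 1.24 in pyoderma case 1 (0.972 to 1.57) and 1.96 in case 2 (1.48 to 2.62). The ratio in EM was 0.676 of that in pyoderma case 1 (0.469 to 0.971), and pyoderma case 2 lay above EM and CPV. *TNF* itself had 87.1 normalized counts in EM, 118 in CPV, 172 in pyoderma case 1 and 156 in case 2. *IL1B* had 28.7, 72.1, 168 and 137 in the same order. For both genes the top ratio in pyoderma case 2 came with its low *IL10*, whereas *IL6* and *CXCL8* were themselves highest there. How many of all targets show such an order over *IL10* was not counted.

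*IL12B*, the shared subunit of IL-12 and IL-23 made by activated myeloid cells, followed CPV. Its count was 77 in EM, 200 in CPV, 46 in pyoderma case 1 and 38 in case 2. *IL12B* over *IL10* was 0.606 in EM (0.451 to 0.811), 1.64 in CPV (1.30 to 2.07), 0.362 in pyoderma case 1 (0.253 to 0.511) and 0.494 in case 2 (0.325 to 0.737). CPV lay above all others. *IL6* over *IL10* differed 10.9-fold between the pyoderma dogs, with 0.205 in case 1 and 2.23 in case 2, and no group level can be read from it. *CXCL8*, the neutrophil chemokine, over *IL10* was 6.69 in EM, 6.10 in CPV, 9.80 in pyoderma case 1 and 42.7 in case 2. CPV had the lowest ratio here, within counting error of EM, and the pyoderma dogs differed 4.35-fold.

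Most of the other lists fixed for these pathways had few genes paired with a target, and 0 of the paired genes passed the threshold. Further list genes may be among the 88 targets that had no symbol. Costimulation and checkpoint genes had 2 of 16 paired, *CD86* and *CD40LG*, and EM lay within the comparatives for the latter. The IL-10 axis and regulation list had 4 of 20, *IL10*, *FOXP3*, *IL4* and *IL13*, and EM lay within the comparatives for all 4, with *IL4* within background in every biopsy. *PTGER4* was the only one of 10 prostaglandin E2 genes that was paired. Of 12 monocyte-attracting and macrophage chemokines 11 were paired. EM was lowest for 3 (*CCL2*, *CCL7* and *CCL8*), highest for 4 (*CCL5*, *CCL13*, *CCL24* and *CXCL10*) and within the comparatives for 4. Of all targets, 33.8% were lowest and 21.2% highest in EM. The median log2 difference of the 11 chemokines was 0.33 beside −0.19 for all targets.

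The high *CD163*, *CD86* and *IL12B* of CPV came together with its high keratin and low collagen signal given above. *CEACAM1*, listed as a neutrophil marker but also made by epithelium, had 2083 normalized counts in CPV. It had 315 in EM, 837 in pyoderma case 1 and 1005 in case 2. The mast cell markers *MS4A2* and *KIT* summed to 201 normalized counts in CPV and to between 461 and 1033 in the other biopsies. The B cell marker *MS4A1*, with 79.8 normalized counts in CPV, lay within the 54.8 to 122 of the other biopsies. The cytotoxic cell marker *KLRD1* had 97.6 normalized counts in CPV (78.2 to 120) and 94.0 in pyoderma case 2 (75.7 to 115), with overlapping intervals. It had 46.8 in EM (35.5 to 60.6) and 55.9 in pyoderma case 1 (41.6 to 73.5), which also overlapped. The melanocyte markers *DCT*, *TYR* and *MC1R* summed to 408 normalized counts in EM and to between 83.7 and 133 in the comparatives. The part of tissue makeup in these results was not tested. T cell and endothelial markers were not paired with any target.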

How the data were processed

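RNA was isolated by the authors from formalin-fixed, paraffin-embedded curls, hybridized to the custom panel and read on a NanoString Sprint machine. The values they deposited are raw whole counts for 160 targets, 6 positive and 8 negative control probes, and the positive controls differed 1.79-fold between biopsies. No genome build applies. Symbols were read from RefSeq's table for UU_Cfam_GSD_1.0, with transcript versions ignored, and 72 of the 160 targets had one there. Of the 4 housekeeping genes the authors name, 3 had a named target, and their geometric mean set the scaling, and log2 values of levels had a pseudocount of 1. Ratios within a biopsy used counts as deposited.

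EM was compared with the 3 comparatives by the quasi-likelihood test of edgeR 4.0.16 in R 4.3.3 with no filter, and adjusted p were taken over all 160 targets at 0.05. On simulated counts with a dispersion of 0.3, near the 0.327 of these biopsies, the test recovered 35.4% of 8-fold and 7.04% of 3-fold changes in EM. Count limits are Poisson, and limits of ratios are exact binomial, or exact conditional limits for ratios of ratios (scipy 1.17.1). Alternatives were 8 other scalings, filters at 20 counts, background subtraction, pseudocounts of 0.5 and 10, each comparative left out, 3 groups and DESeq2 1.42.0. The genes named are the 4 genes, the housekeeping genes, genes of fixed cell type and pathway lists, and the 3 targets nearest in pattern to each gene. The genes and lists were chosen with earlier results of these data known. The replicates are separate dogs.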

Additional observations from a re-analysis of the deposited data

How the results depend on the processing

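The count of targets past the threshold was 0 and stayed 0 under 14 of 16 alternatives. It was 2 with 3 groups (EM minus pyoderma), and from 0 to 2 when 1 comparative was left out, the 2 coming without CPV. None of the 4 genes was called under any of the 16 (edgeR settings and DESeq2). The log2 difference of *CD163* kept its sign under all 15 alternatives (−0.82 to −0.10), as did that of *CD86* (−1.14 to −0.47), which moved by more than the SD of the comparatives only with the panel total, to −0.47. The log2 difference of *IL10*, −0.13, changed sign to 0.13 with TMM, 0.0071 with the median of ratios, 0.33 with the panel total, 0.26 as deposited and 0.18 without *RPL13A*. When 1 comparative was left out it ran from −0.39 to 0.0073, the highest without pyoderma case 1. That of *PTGER4*, 0.32, ran from −0.056 without CPV to 0.63 without pyoderma case 2. A scaling moves all targets of a biopsy by the same factor. The other sign changes came from leaving out the lowest comparative for *PTGER4* (CPV) or the highest for *IL10* (pyoderma case 1). The 3 log2 ratios of *CD86* kept their sign under all 7 alternatives each, from −0.48 to −0.30 for *CD163*, −1.15 to −0.57 for *IL10* and −1.60 to −0.64 for *PTGER4*, and EM was lowest with background subtracted and with either pseudocount. No paired analysis was possible because each biopsy came from a different dog. Depth limits *IL10* most, with 77 to 127 counts.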

Other observations

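*FOXP3*, the transcription factor of regulatory T cells, was counted 34 times in EM, 22 times in CPV, 9 times in pyoderma case 1, within background there, and 29 times in pyoderma case 2. *CD86* over *FOXP3* was 17.0 in EM, 51.7 in CPV and 29.0 in pyoderma case 2, and it is not given for pyoderma case 1. *CD40LG*, the T cell signal that licenses antigen-presenting cells, was counted 66 times in pyoderma case 2, 36 times in EM, 17 times in pyoderma case 1 and 13 times in CPV, which is within background. *CD86* over *CD40LG* was 16.0 in EM (11.4 to 23.1) and 12.7 in pyoderma case 2 (9.91 to 16.6), and 36.3 in pyoderma case 1 (22.5 to 62.7). In pyoderma case 1 the *CD40LG* count was only 1.31 times background, which these limits do not take into account. *CD86* over *MS4A1*, a B cell marker, was 8.24 in EM, 15.8 in CPV, 5.56 in pyoderma case 1 and 15.9 in pyoderma case 2, so pyoderma case 1 had the most B cell signal for its *CD86*.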
